A study of Mus musculus with 3 samples.

Results

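The genes described here make, contain and regulate the acid interior of the lysosome. They are 52 mouse genes chosen by symbol: 27 lysosomal hydrolases and lumenal proteins, 6 lysosomal membrane proteins, 16 subunits and accessory proteins of the vacuolar ATPase, and 3 transcription factors of the TFE family. All 52 symbols matched 1 gene each among the 55536 genes of the annotation. The rule names symbols and uses no measured value, but the genes were chosen with earlier results of these data known. The libraries are total RNA-seq, after removal of ribosomal RNA, of the chromatin fraction of bone-marrow-derived macrophages, primary cells of strain C57BL/6J. There are 3 libraries in 1 group. The cells had Lipid A, a ligand of Toll-like receptor 4 taken from bacterial lipopolysaccharide, at 100 ng/ml for 12 h, then 12 h after wash-out, and were taken at 0 min of a renewed exposure at the same dose. The group has no untreated or singly treated counterpart among these libraries, so nothing below measures an effect of Lipid A. The labels give biological replicates 1 to 3 with 1 shared donor identifier and do not say that separate animals were used; sex and age were not recorded. SDs and p-values therefore measure only the spread between these libraries, which may be technical.

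Lysosomes break down protein, glycan and lipid with hydrolases that work at low pH. The vacuolar ATPase sets that pH: its V1 sector burns ATP in the cytosol, and its V0 sector passes protons through the membrane. TFEB, TFE3 and MITF are related helix-loop-helix factors that, when dephosphorylated, enter the nucleus and bind E-box sequences in the promoters of many lysosomal genes. Macrophages are rich in lysosomes because they digest what they engulf. Chromatin-fraction RNA is enriched for transcripts that are still being made or processed beside the template, so a level here is closer to nuclear RNA than to the cytoplasmic message.

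The libraries of replicates 1, 2 and 3 held 11958978, 17283529 and 19475027 expected counts. The 52 genes together held 1.10%, 1.01% and 1.13% of the counts assigned to genes. Macrophage identity markers were present, with 10 of 10 at 1 TPM (a level per transcript length, scaled to a fixed total per library) or more in each of the 3 libraries. Replicate 3 stands apart. Of 11 stromal markers, 10 were at least 10-fold higher there than in either other library in the gene table. The 11 summed to 1.30, 2.57 and 596 TPM in replicates 1, 2 and 3. Listed at 0 were 7, 3 and 0 of those 11 markers. The read-based tables are a second quantification of the same reads. In them Thy1 had 9.22, 11.1 and 16.9 TPM and Pdgfra 0.558, 0.447 and 2.57 TPM, gaps under 10-fold. Sparc had 4.98, 4.67 and 104 TPM and Col1a1 1.24, 1.75 and 121 TPM there, gaps over 10-fold. Starting RNA also differed, at 1000, 250 and 500 ng. In bulk RNA, a different number of cells of a type and a different amount of RNA per cell cannot be told apart. The 7 osteoclast markers other than the d2 subunit gene described below summed to 1.05, 2.14 and 3.98 TPM. In the read-based tables they summed to 8.86, 9.68 and 10.9 TPM. Ocstamp, a fusion protein of osteoclasts, was listed at 0 in the gene table and at 3.67, 4.82 and 4.07 TPM in the read-based tables. Melanocyte markers, relevant to Mitf and Gpnmb, summed to 0.13, 0.11 and 0.65 TPM in the gene table. In the read-based tables Dct, 1 of these markers, had 3.65, 3.07 and 3.89 TPM, and Tyr, Pmel and Mlana had at most 0.407 TPM. Tyrp1, a pigment enzyme, was listed at 0 throughout in both.

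The E-box that TFE factors bind has the letters CACGTG, and the lysosomal form is extended to TCACGTGA. Both read the same on either strand. RefSeq promoter windows of 300 bases on GRCm38.p6, from 250 bases before to 50 after the annotated start, were found for 44 of the 52 genes. CACGTG was present in 13 of the 44 (29.5%), against 8.09% of 27025 genes with such a window, 9.18% of 16522 protein-coding genes, and 12.7% of the 4310 protein-coding genes that reached 10 TPM in each library. The 8-base form, which contains the 6-base one, was present in 6 of the 44 (13.6%), against 1.12%, 1.45% and 3.18%. The M-box, TCATGTGA or its reverse complement TCACATGA, was also in 6 of the 44 (13.6%), against 1.15%, 1.01% and 1.11%: Ctss, Tpp1, Gla, Ppt1, Grn and Atp6v0c. CpG dinucleotides, which CACGTG contains, had a median of 5.33 per 100 bases in the 44 windows, 5 in protein-coding genes and 8 in those at 10 TPM or more. A match describes letters in a window; binding was not measured in these libraries.

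The windows around the 8-base form are shown because they are the letters by which the TFE factors in the set could be read against the enzymes and pump subunits in it, with Lamp1 added for its 4 copies of the 6-base form. Each is 5′ to 3′ on the gene's strand, with the E-box or M-box letters in capitals. The coordinates are chr8:105566050-105566079 for Atp6v0d1 (minus strand), chr16:44139364-44139411 for Atp6v1a (minus), chr2:164833758-164833786 for Ctsa (plus), chr7:142387908-142387937 for Ctsd (minus), chrX:134601173-134601253 for Gla (minus), chr8:3500448-3500480 for Mcoln1 (plus) and chr8:13159100-13159151 for Lamp1 (plus).
Atp6v0d1: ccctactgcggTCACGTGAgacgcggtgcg
Atp6v1a: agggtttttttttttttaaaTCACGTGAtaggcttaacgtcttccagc
Ctsa: tgTCACGTGAtgcagatgcTCACGTGAcc
Ctsd: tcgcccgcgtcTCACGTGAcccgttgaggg
Gla: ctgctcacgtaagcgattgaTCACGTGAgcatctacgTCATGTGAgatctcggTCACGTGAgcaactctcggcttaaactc
Mcoln1: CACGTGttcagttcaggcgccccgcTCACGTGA
Lamp1: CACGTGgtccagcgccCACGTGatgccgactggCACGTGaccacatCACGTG
Ctsa holds the 8-base form 2 times within 29 bases, and Gla holds it 2 times with an M-box between them. The site of Atp6v0d1 begins 4 bases before the RefSeq start, and that of Atp6v1a begins 132 bases before it.

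The 13 genes with CACGTG had a median of 40.7 TPM and ran from 7.74 to 290 TPM, and the 31 without it had a median of 54.6 TPM and ran from 2.69 to 1273 TPM. The 6 genes with the 8-base form had a median of 61.2 TPM, against 53.6 TPM for the other 38. Within the hydrolases and lumenal proteins, the 8 with CACGTG had a median of 17.8 TPM and the 16 without it 70.8 TPM, while the 3 with the 8-base form had 277 TPM and the 21 without it 46.9 TPM. The direction thus depends on which form is counted. No test was run on these medians, since genes are not replicates.

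All 52 genes were detected, most of them far above the usual protein-coding gene. In each library 52 of 52 reached 1 TPM, against 46.1% of the 22028 annotated protein-coding genes. At 10 TPM or more were 44 of 52, against 24.3%, and at 100 TPM or more 14 of 52, against 2.16%. The median log2(TPM + 1) was 5.90 ± 0.12 (SD, n = 3) over the 52 genes and 0.88 ± 0.23 over all protein-coding genes, many of which are silent in any one cell type. Over the 35 other lysosomal genes described below it was 4.15 ± 0.26. The 52 were chosen with earlier results of these data known, so these shares and medians may in part reflect the choice. By class the median was 6.44 ± 0.18 for membrane proteins, 6.24 ± 0.09 for hydrolases and lumenal proteins, 5.85 ± 0.04 for the vacuolar ATPase and 5.39 ± 0.21 for the TFE factors. Without replicate 3 the same medians were 6.34, 6.21, 5.83 and 5.38. The order of the first 2 classes was not settled. Hydrolases minus membrane proteins was -0.20 ± 0.13 log2 units here and -0.02 ± 0.18 in the read-based tables. Per kilobase of exon union it turned to 0.22 ± 0.25.

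Hydrolases were above the vacuolar ATPase by 0.31, 0.45 and 0.41 log2 units in replicates 1, 2 and 3 (0.39 ± 0.07), and membrane proteins were above it by 0.50, 0.52 and 0.75 (0.59 ± 0.13). The vacuolar ATPase was above the TFE factors by 0.66, 0.24 and 0.49 (0.46 ± 0.21). These 3 differences had 1 sign in all 3 libraries. In the read-based tables they were smaller, at 0.17 ± 0.13, 0.19 ± 0.13 and 0.06 ± 0.12, and the last was -0.01, -0.01 and 0.20 in the 3 libraries. With 3 libraries a sign-flip test cannot go below 0.25, so no class difference was tested.

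**Figure D1:**
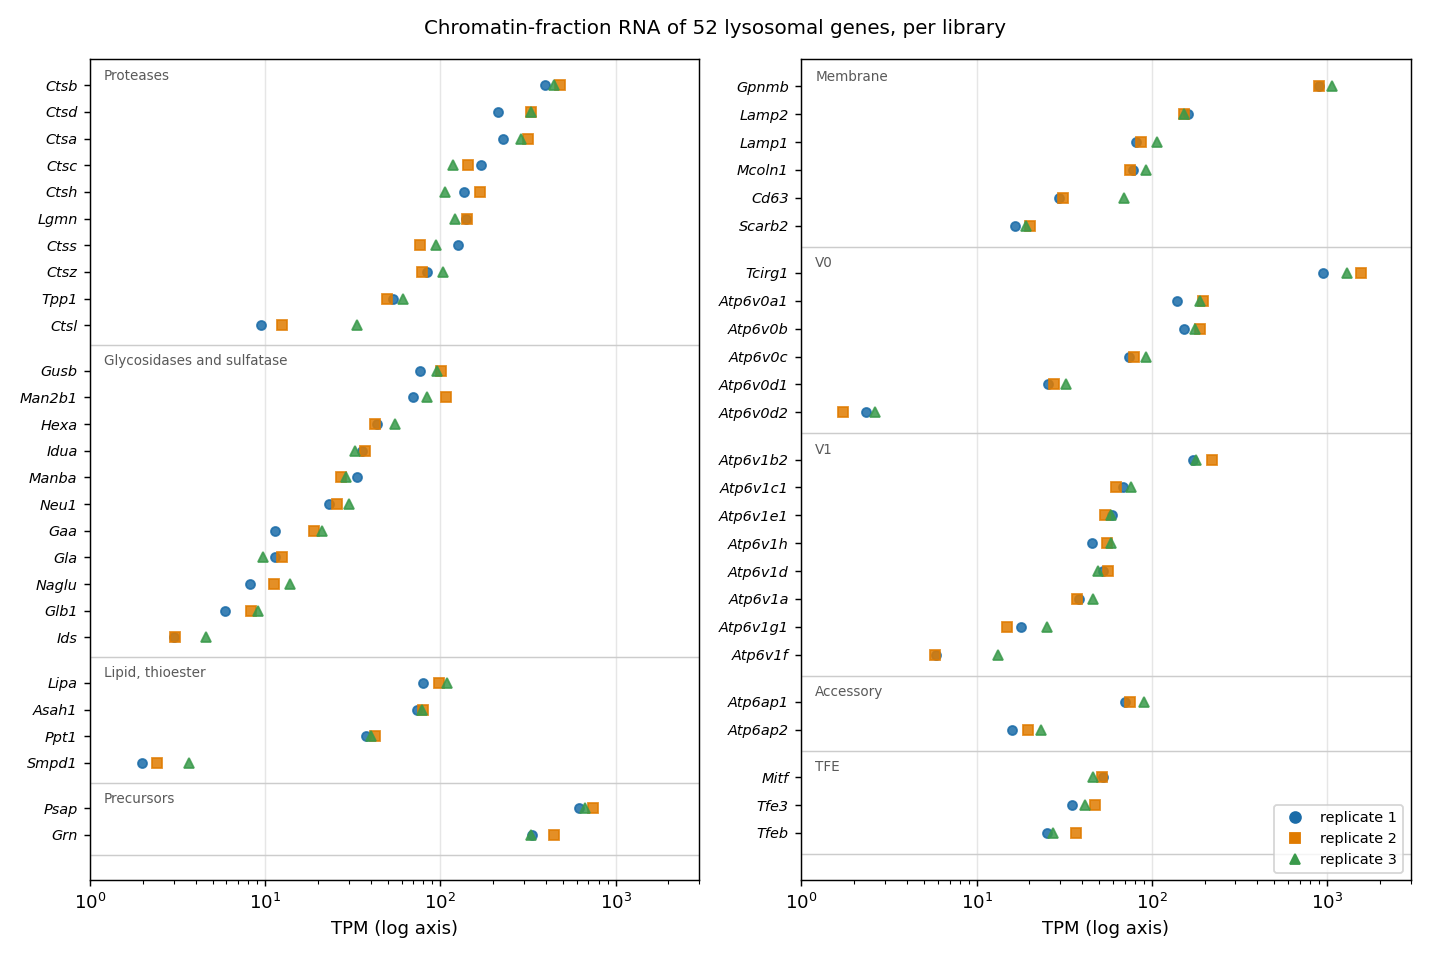
TPM in the alignment-based gene table (log axis) for each of the 52 genes, grouped by role, with 1 marker per library. Within most rows the 3 libraries lie close together while rows span from about Atp6v0d2 at 2.23 TPM to Tcirg1 at 1273 TPM; the widest rows include Ctsl and Cd63, where replicate 3 lies to the right.

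Proteases were the best represented enzymes. The 10 proteases had a median level of 135.5 TPM, the 4 lipid and thioester hydrolases 58.6 TPM and the 11 glycosidases and sulfatase 26.2 TPM. With 100 TPM or more throughout there were 6 of 10 proteases and 0 of 11 in the glycosidase and sulfatase group.

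Ctsb, the cysteine protease cathepsin B (chr14:63122462-63145923, mm10, plus strand), led the proteases with 396, 484 and 442 TPM. Ctsd, the aspartic protease cathepsin D (chr7:142375911-142388038, minus strand), had 214, 327 and 329 TPM. The lead of Ctsb depended on the scale. For protein-coding transcript models alone Ctsd was above Ctsb in every library, at 140, 209 and 258 TPM against 106, 122 and 138 TPM. Per kilobase of exon union Ctsd was above Ctsb in replicates 2 and 3 and below it in replicate 1. Ctsa, a serine carboxypeptidase that also protects neuraminidase and beta-galactosidase in a complex, had 227, 316 and 288 TPM. Replicate 1 was the lowest library for these 3 genes in the gene table. In the read-based tables replicate 3 was the lowest for Ctsb and Ctsa, by a small margin. Their expected counts overlap in position with other genes: Ctsd shares 6757 bases with Gm49369 on the same strand, and Ctsa shares 1515 bases with Pltp on the opposite strand. Whether counting used strand is not stated in the labels or file notes, so reads of such neighbours may not have been told apart.

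The lowest protease in whole-gene TPM was Ctsl, cathepsin L (chr13:64359337-64370890, minus strand), a cysteine endopeptidase, with 9.46, 12.5 and 33.4 TPM. Replicates 1 and 2 were close and replicate 3 was well above both. Ctsc, which activates granule serine proteases, ran from 118 to 170 TPM. Ctsh, an aminopeptidase, ran from 107 to 168 TPM. Lgmn, the asparagine-specific legumain, ran from 121 to 141 TPM. Tpp1, a tripeptidyl peptidase whose loss causes a neuronal ceroid lipofuscinosis, ran from 49.6 to 60.9 TPM. For protein-coding models alone Tpp1 had 7.78, 5.68 and 8.40 TPM and Ctsl had 5.55, 7.76 and 26.6 TPM. On that scale Tpp1 was below Ctsl in replicates 2 and 3. Ctsz, a carboxypeptidase, ran from 78.7 to 103 TPM.

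Among glycosidases, Gusb (beta-glucuronidase, which trims glycosaminoglycans) had 75.9, 101 and 96.1 TPM. Man2b1 (alpha-mannosidase) had 69.5, 108 and 83.7 TPM, and Hexa (the alpha chain of beta-hexosaminidase) had 43.5, 42.1 and 55.1 TPM. These 3 led the group, and the ranges of Gusb and Man2b1 overlapped. Their order changed with the scale. For protein-coding models alone Hexa had the highest mean, at 46.9 ± 7.1 TPM, against 36.8 ± 8.7 for Gusb and 33.1 ± 6.4 for Man2b1. Hexa also had the highest mean per kilobase of exon union. In replicate 2 Gusb was above Hexa on the first of these scales and Man2b1 was above Hexa on the second. The lowest was Ids, iduronate 2-sulfatase, with 3.03, 3.07 and 4.57 TPM. Idua, which acts next to Ids on the same glycosaminoglycans, had 35.6, 37.1 and 32.6 TPM, but its gene overlaps Dgkq over 9342 bases and Slc26a1 over 5692 bases on the opposite strand. Gla, alpha-galactosidase A, the enzyme lost in Fabry disease, ran from 9.66 to 12.4 TPM, and Gaa, acid alpha-glucosidase, the enzyme lost in Pompe disease, from 11.3 to 21.2 TPM. Naglu, which acts on heparan sulfate, ran from 8.17 to 13.8 TPM, and Glb1, beta-galactosidase, from 5.90 to 9.03 TPM.

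Of the lipid and thioester hydrolases, Lipa (lysosomal acid lipase, which frees cholesterol from its esters) had 79.2, 98.4 and 109 TPM. Asah1 (acid ceramidase) had 73.6, 79.9 and 78.4 TPM, and Ppt1 (a palmitoyl-protein thioesterase) ran from 37.7 to 42.2 TPM. Smpd1, acid sphingomyelinase, was far below them at 1.99, 2.42 and 3.67 TPM, from 44, 72 and 136 expected counts. Smpd1 and Asah1 act on neighbouring steps of sphingolipid breakdown, and Asah1 was the higher in every library.

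The precursor proteins were among the highest of all. Psap, the precursor of the saposins that present lipids to their hydrolases (chr10:60277627-60302597, plus strand), had 618, 740 and 672 TPM. Grn, the precursor of the granulins (chr11:102430315-102437048, plus strand), had 333, 445 and 328 TPM. Psap was above Grn in every library. Replicate 2 was the highest for both in TPM, but replicate 1 was the highest per kilobase of exon union. On that scale Psap had 545.8, 524.0 and 519.7 CPM (counts scaled to a fixed library total) and Grn had 91.0, 90.6 and 84.5.

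The membrane proteins were led by Gpnmb, a glycoprotein that macrophages carry in late endosomes and lysosomes (chr6:49036546-49070929, plus strand). Gpnmb had 906, 895 and 1075 TPM. Lamp2, a heavily glycosylated coat protein of the lysosomal membrane, had 161, 153 and 152 TPM, and Lamp1, its close relative, had 81.0, 86.9 and 107 TPM. The CV of Lamp2 over the libraries was 2.92% in TPM of the gene table. In the read-based tables Lamp2 varied more, at 164, 126 and 139 TPM. In TPM, Gpnmb was above Lamp2, and Lamp2 above Lamp1, in all 3 libraries. Per kilobase of exon union Lamp2 had 44.8, 34.8 and 37.7 CPM and Lamp1 had 34.9, 30.3 and 52.3, so their order turned in replicate 3. Scarb2, which carries beta-glucocerebrosidase to the lysosome, was the lowest of the class with 16.6, 20.2 and 19.2 TPM. Mcoln1, the calcium channel TRPML1 that lies upstream of TFEB dephosphorylation, ran from 74.9 to 92.7 TPM, and Cd63, a tetraspanin of late endosomes, from 29.5 to 69.3 TPM.

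The level of Lamp2 was divided among 5 transcript models. In the read-based tables the protein-coding model Lamp2-202 had 47.1, 38.7 and 45.5 TPM and the protein-coding Lamp2-201 had 29.7, 23.5 and 27.8 TPM, in that order in every library. A processed transcript, Lamp2-205, held 25.6% of the level, and the retained-intron model Lamp2-204 held 17.6%. Which of the named Lamp2 protein forms each model encodes was not analysed here.

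Some genes of the vacuolar ATPase encode alternative forms of the same subunit. Genes of the class differed 571-fold in TPM from the highest, Tcirg1, to the lowest, Atp6v0d2, an alternative to Atp6v0d1. The fold was 346 in the read-based tables, 207 per kilobase of exon union and 175 for protein-coding models alone, between the same genes. Tcirg1, the a3 subunit of V0 (chr19:3896050-3907133, minus strand), had 954, 1572 and 1294 TPM, rank 4 among protein-coding genes. Atp6v1b2, the B2 subunit of the catalytic V1 head, had 171, 221 and 178 TPM. Atp6v0a1, the a1 subunit (chr11:101009452-101063719, plus strand), had 139, 197 and 188 TPM. Atp6v0b, the c'' subunit of the proton-carrying ring, had 152, 187 and 177 TPM. Atp6v0c, the c subunit of the ring, ran from 73.7 to 93.2 TPM. Below Tcirg1, these whole-gene values of Atp6v1b2, Atp6v0a1 and Atp6v0b overlapped between libraries. For protein-coding models alone Atp6v0b was the highest of the 3 in every library, at 108, 131 and 133 TPM. Atp6v0a1 had 28.8, 43.2 and 47.6 TPM on that scale, and Atp6v1b2 had 26.4, 36.5 and 34.1 TPM.

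The a subunit directs the pump to its membrane, and a3 is the form known from osteoclasts and from late endosomes and lysosomes of macrophages. Tcirg1 exceeded Atp6v0a1 by 2.77, 2.99 and 2.77 log2 units (2.84 ± 0.13), and Atp6v0a1 exceeded Atp6v0a2 by 2.06, 2.49 and 2.67 (2.41 ± 0.32). Atp6v0a2, which is known from the Golgi and endosomes, had 32.7, 34.2 and 28.7 TPM. Atp6v0a4, known from kidney, was listed at 0, 0 and 0.02 TPM. The order of the a genes was thus a3, a1, a2, a4 in every library.

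The d subunit joins V0 to the central stalk. Atp6v0d1 (chr8:105524465-105566047, minus strand) had 25.6, 27.5 and 32.4 TPM. Atp6v0d2 (chr4:19876841-19922605, minus strand), the form raised in osteoclasts, had 2.34, 1.72 and 2.63 TPM from 64, 55 and 104 expected counts. Atp6v0d1 was above Atp6v0d2 by 2.99, 3.39 and 3.20 log2 units (3.20 ± 0.20), and by 3.23 ± 0.16 in the read-based tables.

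In V1 the A subunit, Atp6v1a, binds ATP with B2 and ran from 37.6 to 45.9 TPM. The stalk and regulatory genes Atp6v1c1, Atp6v1d, Atp6v1e1 and Atp6v1h had means from 52.5 to 69.4 TPM. Atp6v1g1, a peripheral stalk subunit, ran from 14.8 to 25.2 TPM. Atp6v1f, a small subunit of the rotor, was the lowest of V1 at 5.83, 5.81 and 13.2 TPM, from 35, 37 and 104 expected counts. The accessory genes Atp6ap1 and Atp6ap2, whose products help to assemble the pump, had means of 78.7 ± 10.8 and 19.7 ± 3.7 TPM (SD, n = 3).

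Of 9 further genes that encode alternative or remaining subunits, 3 reached 1 TPM in every library: Atp6v0a2, Atp6v0e with 18.6, 20.1 and 23.7 TPM, and Atp6v1g2 with 7.48, 4.85 and 6.47 TPM. Atp6v1e2 and Atp6v1g3, paralogs known from testis and kidney, had 0 expected counts in every library, which allows up to 0.254, 0.174 and 0.154 CPM (counts scaled to a fixed library total) in replicates 1, 2 and 3; this covers counting error only. The read-based tables also list Atp6v1e2 at 0 but give Atp6v1g3 2.14, 1.60 and 1.53 TPM, so its absence rests on the gene table. Atp6v1b1, the kidney form of B, had 0.79, 1.06 and 0.80 TPM, so B2 was the B gene with nearly all of the level. Wherever subunits B, C, E and G have a choice of genes, the gene in the 52 was the highest in each library. The 52 were chosen with earlier results of these data known, so that order may in part reflect the choice.

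**Figure D2:**
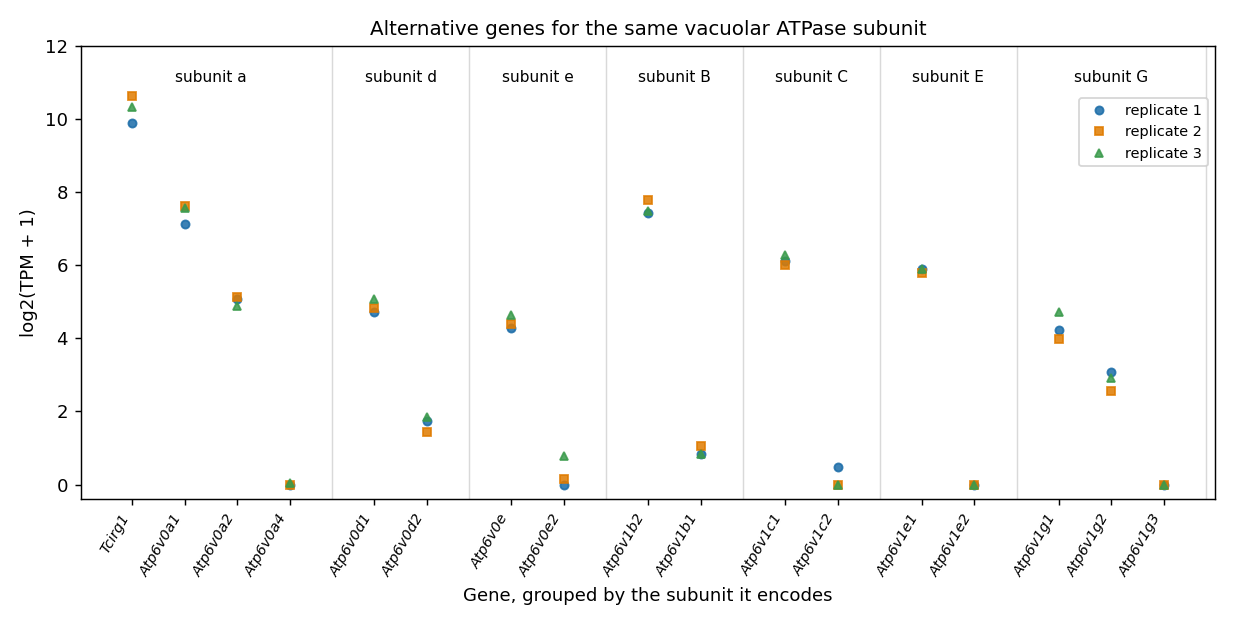
log2(TPM + 1) per library for genes that encode the same vacuolar ATPase subunit, with vertical lines between subunits. The a3 gene Tcirg1 lies above a1, a2 and a4, Atp6v0d1 lies above Atp6v0d2, and 1 gene of B, C and E holds nearly all of the signal.

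The rank of Tcirg1 changed with the length scale. TPM in the gene table sums over transcript models, each with its own length. Tcirg1 has 14 models, 7 of them of the retained-intron type. When expected counts were instead divided by the union of all annotated exons, Psap came first with 529.8 ± 14, followed by Tcirg1 with 355 ± 24.2, Gpnmb with 272 ± 44.4 and Ctsd with 149.7 ± 32.9 CPM per kilobase (SD, n = 3). When only protein-coding models were summed, the means were 677 ± 61 TPM for Psap, 473 ± 63.8 for Gpnmb and 390.3 ± 38 for Tcirg1. The same 3 genes led on each of the 3 scales, in another order.

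**Figure D3:**
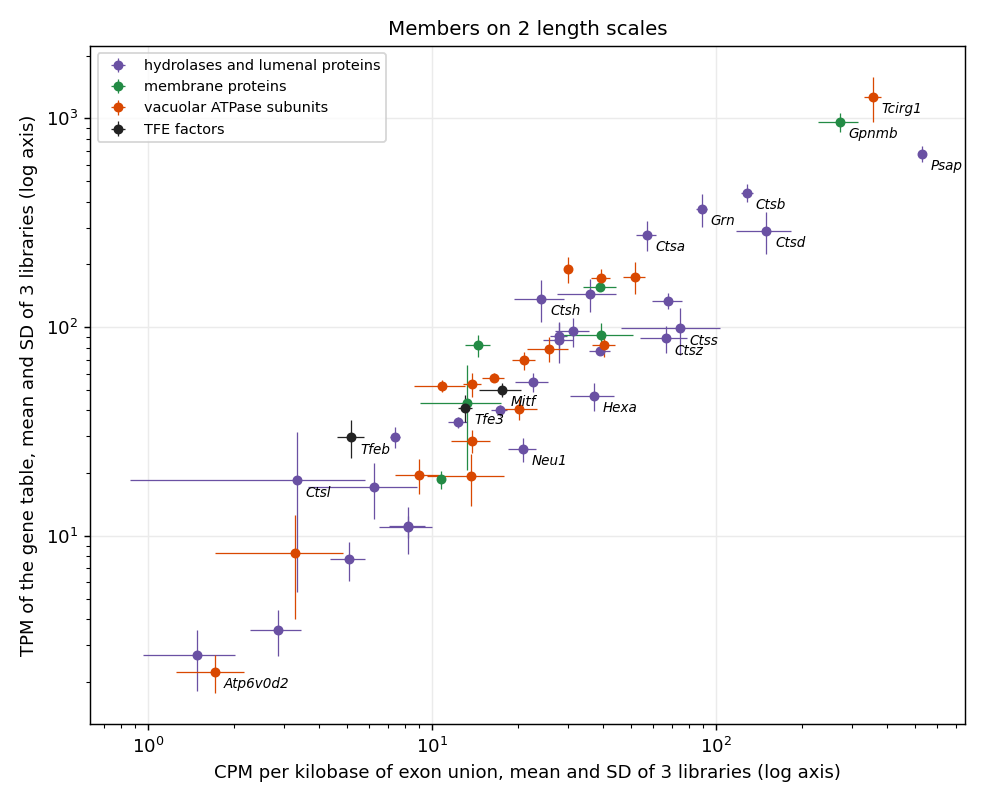
Mean TPM of the gene table against mean CPM per kilobase of exon union for the 52 genes, both on log axes, with SDs over 3 libraries and colours for the 4 classes. Psap lies farthest right at 529.8 CPM per kilobase and Tcirg1 highest at 1273 TPM; Tfeb and Ctsl lie above and left of genes of like TPM.

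The TFE factors were expressed at moderate level, and their order was not settled. Mitf (chr6:97807052-98021349, plus strand) had 52.4, 52.3 and 46.0 TPM. Tfe3 (chrX:7762560-7775202, plus strand) had 34.9, 47.1 and 41.7 TPM. Tfeb (chr17:47737030-47792419, plus strand) had 25.3, 36.7 and 27.1 TPM. Mitf was the highest and Tfeb the lowest in each library, although Tfe3 and Mitf differed by 0.15 and 0.14 log2 units in replicates 2 and 3. Tfec, the fourth family member and one largely confined to myeloid cells, had 41.8, 46.6 and 52.4 TPM, and was below Mitf in replicates 1 and 2 and above it in replicate 3.

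In the read-based tables Tfeb moved from the lowest to the highest, and Mitf stayed above Tfe3. Tfeb had 97.7, 101 and 92.8 TPM there, Mitf 81.2, 68.1 and 65.6, and Tfe3 36.3, 37.5 and 36.9. Tfe3 minus Tfeb was 0.47 ± 0.13 log2 units in the gene table and -1.37 ± 0.06 in the read-based tables, each with 1 sign in 3 of 3 libraries. Per kilobase of exon union it was 1.32 ± 0.17. Mitf minus Tfeb likewise went from 0.75 ± 0.26 to -0.44 ± 0.16. Tfeb has 15 annotated transcript models, and in the read-based tables its highest, Tfeb-206, held 15.5% of its level, so the estimate is spread over many models. Of Tfe3, 85.2% was assigned to retained-intron models, and its protein-coding models had 4.52, 5.16 and 6.00 TPM, against 82.5, 85.5 and 72.8 TPM for those of Tfeb. Mitf spans 214298 bases, and 1 retained-intron model, Mitf-206, held 43.4% of its level. The change between quantifications exceeded the SD over libraries for Tfeb and Mitf, at 1.70 ± 0.24 and 0.50 ± 0.12 log2 units, and not for Tfe3, at -0.15 ± 0.19.

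Genes around the TFE factors and lysosomal sorting were mostly present: of 25 chosen by role, 23 had 1 TPM or more and 16 had 10 TPM or more in every library. Fnip2, a partner of folliculin at the lysosome, led with 321, 295 and 280 TPM. Flcn, folliculin itself, which acts on the Rag GTPases that hold TFEB and TFE3 in the cytosol, had 66.4, 84.3 and 72.5 TPM. Ppp3cb, a catalytic subunit of calcineurin, the phosphatase that acts on TFEB, had 64.4, 70.4 and 68.5 TPM. Rragb, a Rag GTPase known from brain, was the lowest with 0.30, 0.22 and 1.12 TPM.

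Among 35 other lysosomal genes, 32 had 1 TPM or more and 22 had 10 TPM or more in every library. Clcn7, the chloride-proton exchanger of the lysosome, had 235, 251 and 252 TPM, and Npc2, the soluble cholesterol carrier, had 150.5, 170 and 149 TPM. Laptm4b, a small membrane protein, was the lowest with 0.18, 0.25 and 1.17 TPM, highest in replicate 3.

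Between the quantifications, 6 of the 52 genes were over 2-fold higher in the read-based tables, against 26.8% of the 13376 protein-coding genes at 1 TPM or more in either, and 0 of 52 were over 2-fold lower, against 0.209%. The largest differences were 1.70 ± 0.24 log2 units for Tfeb, 1.65 ± 0.23 for Gla, 1.54 ± 0.65 for Ctsl, 1.16 ± 0.39 for Gaa and 1.10 ± 0.11 for Manba (beta-mannosidase). In the other direction they were -0.37 ± 0.22 for Cd63, -0.20 ± 0.18 for Man2b1, -0.17 ± 0.07 for Smpd1, -0.15 ± 0.19 for Tfe3 and -0.13 ± 0.16 for Lamp2. The median over the 52 genes was 0.35, against 0.50 over the protein-coding genes.

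No lysosomal gene was called more variable between libraries than genes of its level. With edgeR's quasi-likelihood fit and Benjamini-Hochberg adjustment over 14839 genes, 0 of 52 were more variable than the trend at an adjusted p under 0.05, against 0.162% of all genes tested. So few genes were called over all that 0 of 52 does not set these genes apart. At an unadjusted p under 0.05 there were 4 of 52, against 5.81%: Ctsl, Ctss, Gaa and Cd63. With DESeq2's size factors in the same fit the counts were 0 and 3. The median ratio between libraries over the 52 genes was 0.09 log2 units for replicate 1 over 2, -0.04 for 1 over 3 and -0.11 for 2 over 3, and over all genes it was -0.01, -0.03 and -0.02. Ctsb had 762, 777 and 790 normalised CPM and Scarb2 had 66.4, 68.9 and 67.6, each differing 1.04-fold between its highest and lowest library.

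Ctsl departed most. It had 12.2, 13.2 and 39.1 normalised CPM, with replicate 3 above both others, and an adjusted p of 0.168 in edgeR's quasi-likelihood fit. Across the other settings that adjusted p ran from 0.00992, with no filter on low counts, to 0.997 without replicate 3, so the gene passed the threshold under 1 setting. Atp6v1f differed 2.30-fold, at 2.93, 2.27 and 5.21 normalised CPM, and Gaa differed 2.15-fold, at 19.9, 26.9 and 42.8. Ctss, cathepsin S, a protease of antigen presentation (chr3:95526786-95556403, plus strand), differed 1.97-fold and the other way, at 142, 71.9 and 89.7, with replicate 1 the highest. Smpd1 differed 1.85-fold, at 3.68, 4.42 and 6.82. The adjusted p was 0.540 for Ctss and 0.579 for Gaa in the same edgeR fit.

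Over 1.5-fold higher in replicate 3 than in each other library were 5 of 52, namely Ctsl, Gaa, Smpd1, Cd63 and Atp6v1f, against 12.1% of 12187 protein-coding genes. For replicate 1 it was 1 of 52, Ctss, against 2.04%, and for replicate 2 it was 0 of 52, against 1.24%. The share for replicate 3 among these genes is near that among all protein-coding genes. The summed stromal markers in the gene table were 596 TPM in replicate 3 and at most 2.57 TPM in the others. Their part in the levels of these 5 genes was not tested.

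Because chromatin RNA holds unfinished transcripts, the share of a gene's transcript TPM in models of the retained-intron type was taken from the read-based tables, which carry transcript types. Of the 52 genes, 37 have such a model. Their median share was 49.6%, 50.6% and 46.5% in replicates 1, 2 and 3, against 46.1%, 47.2% and 44.4% over 7362 protein-coding genes with such a model. Over 50% in every library were 16 of 37, against 38%. By class, the median was 55.6% ± 1.8 for 11 vacuolar ATPase genes, 51.8% ± 5.9 for 17 hydrolases and lumenal proteins, 43.4% ± 1.2 for the 3 TFE factors and 32.7% ± 6.4 for 6 membrane proteins (SD, n = 3).

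Neu1, a neuraminidase that removes sialic acid (chr17:34931253-34935953, plus strand), had the highest share, with 99.3%, 97.5% and 97.9%. Its protein-coding model had 0.18, 0.53 and 0.58 TPM, and its level of 23.1 to 29.9 TPM in the gene table is thus almost all from retained-intron models. Atp6v1b2 had a share of 89.2%, 86.7% and 86.0%. Tfe3 had 86.8%, 85.1% and 83.7%. Ctsb, the leading protease in whole-gene TPM, had 82.9%, 84.1% and 80.2%, with protein-coding TPM of 101, 94.8 and 114. The protein-coding models of Ctsd were higher, at 158, 192 and 233 TPM. Ctsh had 80.4%, 82.7% and 81.0%. At the low end were Manba with a mean of 9.58%, Tfeb with 13.4% and Lamp2 with 17.5%. A low share need not mean a high protein-coding level. Protein-coding models of Manba had 4.78, 5.57 and 6.06 TPM of 70.5, 55.6 and 68.7, and those of Tfeb had 82.5, 85.5 and 72.8 of 97.7, 101 and 92.8. In the alignment-based transcript table the mean share of Manba was 20.5%. The models are annotated fragments with their own lengths, so a share is an assignment of reads and not a measured fraction of unspliced molecules.

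**Figure D4:**
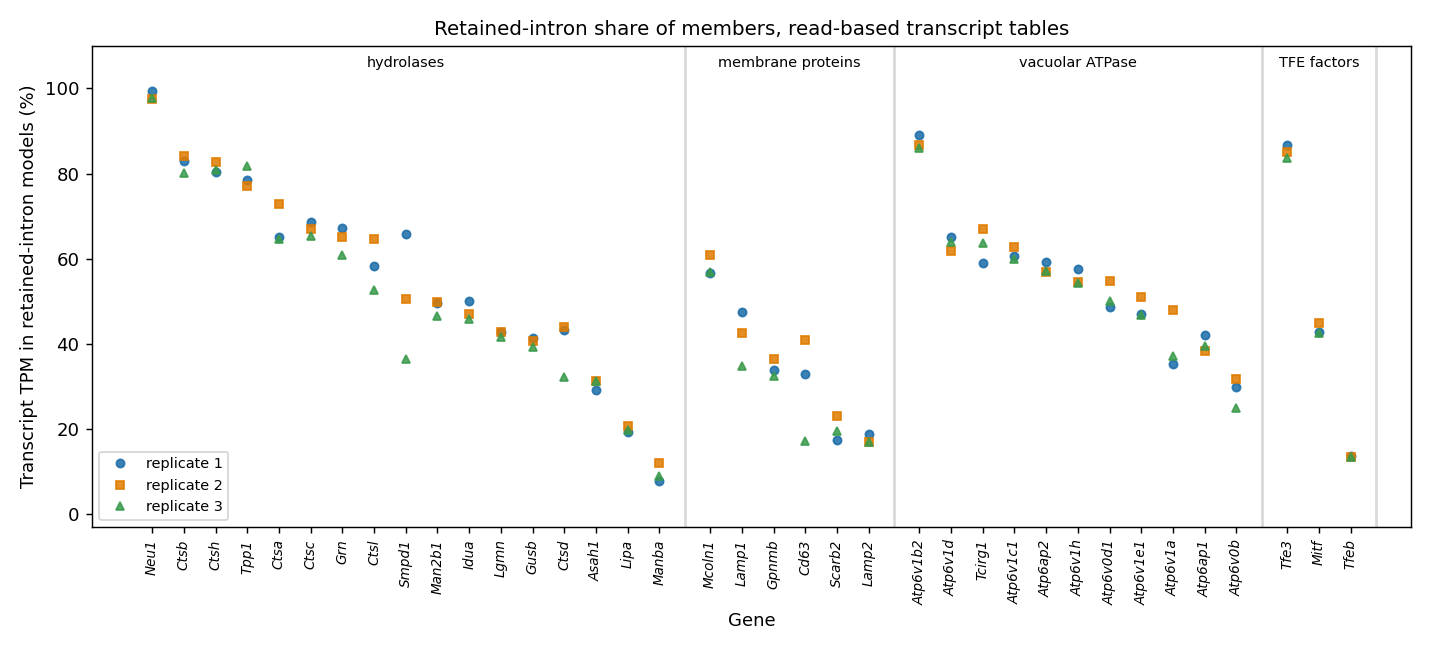
Percent of each gene's transcript TPM in retained-intron models, per library, for the 37 genes with such a model, ordered by mean within class. Most genes hold their place across libraries; Smpd1, Cd63, Ctsd and Lamp1 have replicate 3 below the others.

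In replicate 3 the share was the lowest of the 3 libraries for 23 of 37 genes, against 41.9% of protein-coding genes with such a model. The widest gap was in Cd63 (chr10:128900989-128912822, plus strand), with 32.9%, 41.0% and 17.1%. Its retained-intron model was level at 8.90, 8.59 and 8.65 TPM, while its protein-coding models had 16.8, 12.4 and 42.0 TPM. The difference lay mostly in 1 model, Cd63-201, with 9.10, 7.17 and 37.3 TPM. Smpd1 had shares of 65.8%, 50.6% and 36.4%, Ctsd 43.2%, 43.9% and 32.1%, and Lamp1 47.4%, 42.4% and 34.8%.

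For Lamp1 (chr8:13159161-13175338, plus strand), protein-coding TPM was 45.9, 45.4 and 66.8 and retained-intron TPM was 41.3, 33.5 and 35.7. For Ctsd the protein-coding values were 158, 192 and 233 TPM and the retained-intron values 120, 150 and 110 TPM. In Ctsl 1 protein-coding model stood out: Ctsl-201 was listed at 0, 0 and 12.9 TPM in the read-based tables and had 4.96, 5.06 and 22.9 TPM in the alignment-based ones. The retained-intron model of Ctsl, Ctsl-202, had 25.9, 26.5 and 32.0 TPM, also the highest in replicate 3. In replicate 3 the protein-coding models of Cd63, Lamp1, Ctsd, Smpd1 and Ctsl were each the highest of the 3 libraries, while the retained-intron models of Cd63, Lamp1, Ctsd and Smpd1 stayed within or below the range of the other libraries. These are the genes whose share fell furthest in replicate 3. High protein-coding values beside retained-intron ones in that library are thus largely built into the choice. The stromal markers given above move with the same library, and their part in these values was not tested. A library of 1 per pattern gives no replicate check.

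**Figure D5:**
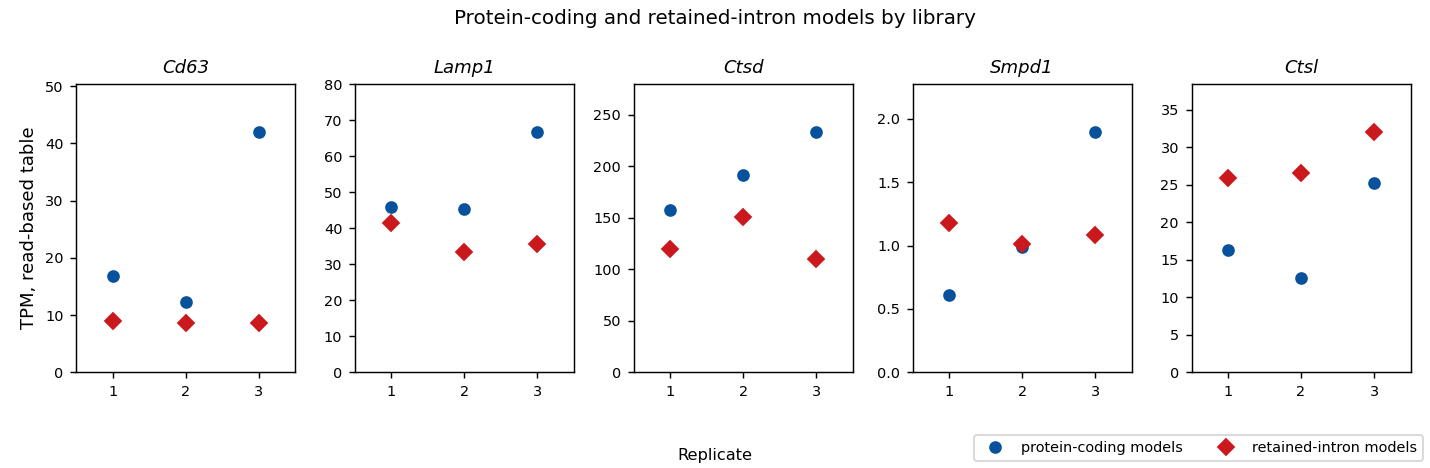
TPM of protein-coding models (circles) and of retained-intron models (diamonds) in the read-based tables for Cd63, Lamp1, Ctsd, Smpd1 and Ctsl, by replicate, each panel with its own axis from 0. Circles are highest in replicate 3 in every panel, from 12.4 to 42.0 TPM for Cd63, while the diamonds of Cd63 stay between 8.59 and 8.90 TPM.

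Of the 52 genes, 21 overlap another annotated gene and 17 overlap one on the opposite strand. Besides those named above, Lamp1 shares 3317 bases with Grtp1 on the opposite strand, and Glb1 shares 6172 bases with Tmppe on the same strand. For Ctss, a processed pseudogene inside its span, Hmgb1-ps5, had a mean of 101 TPM. There are 3 annotated pseudogenes named after members, from Atp6v0c and Cd63, with which reads could be shared. Levels of these genes carry that uncertainty.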

How the data were processed

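For each of the 3 libraries the submitters gave 3 tables (genes, and transcripts quantified from alignments or directly from reads) on mm10 with GENCODE M21, per the notes that accompany the deposited files. Aligner, version and strandedness were not given in the sources used here. The expected counts were deposited by the authors as raw, partly fractional estimates. The deposited TPM covers all rows, tRNA and spike rows included. Rows without a gene name took 1.31%, 0.476% and 0.240% of counts in replicates 1, 2 and 3 and were left out of sums and tests. A count of 3 equals 0.254, 0.174 and 0.154 CPM. No library is a duplicate: chi-square values for each pair, divided by degrees of freedom, lay from 39.3 to 68.2.

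Levels are TPM of the gene table, with 1 added before log2. Variability came from a quasi-likelihood fit (edgeR 4.0.16, R 4.3.3) of the rounded expected counts after filterByExpr and TMM scaling, with an intercept only and a robust prior; each quasi-dispersion was tested against the trend with Benjamini-Hochberg adjustment. The robust prior became the main setting after a fit without it, run first, had called 0 of 14839 genes; both call 0 of the 52. The step was run on simulated data of uniform dispersion, lower than that of these libraries, so that run does not give its error rate here. DESeq2 1.42.0 gave alternative size factors. Normalised CPM is CPM after TMM scaling. Remaining work was done with Python 3.11.15, numpy 2.4.6, pandas 2.3.3 and matplotlib 3.10.9. Promoter windows are from RefSeq (GRCm38.p6), whose starts can differ from those of GENCODE; the M-box search and the 2 narrower promoter backgrounds were added after the values were seen.

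Genes named with values in each library are the 3 highest and the lowest of each class and list, the a and d subunits, the TFE factors, and the 5 most variable, with the highest retained-intron share, and most different between quantifications in each direction; others are given by range. One gene that this rule picks is not reported here. Ctsd, Lamp1 and Cd63 isoforms were singled out after their values were seen. The members and lists were chosen with earlier results of these data known. Alternatives were the read-based tables, renormalized TPM, other pseudocounts, filters and size factors, and leaving out each library; TPM of protein-coding models alone, CPM per kilobase of exon union and the robust prior were added after seeing the data.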

Additional observations from a re-analysis of the deposited data

How the results depend on the processing

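No paired analysis was possible because there is 1 group. Renormalizing TPM over protein-coding and long non-coding genes of the nuclear genome shifts every gene by 1.38, 1.05 and 1.22 log2 units in replicates 1, 2 and 3; class medians then became 7.45 (hydrolases and lumenal proteins), 7.65 (membrane proteins), 7.06 (vacuolar ATPase) and 6.59 (TFE factors), and Atp6v0d1 minus Atp6v0d2 became 3.45. In the read-based tables the medians of hydrolases, vacuolar ATPase and TFE factors were 6.40, 6.23 and 6.18; hydrolases minus vacuolar ATPase was 0.17, membrane proteins minus vacuolar ATPase 0.19, vacuolar ATPase minus TFE factors 0.0574, Tcirg1 minus Atp6v0a1 2.69, Tfe3 minus Mitf -0.93, and Tfe3 minus Tfeb reversed to -1.37. With protein-coding models alone the 4 medians were 4.94, 5.54, 4.49 and 4.42; membrane proteins minus vacuolar ATPase was 1.05, vacuolar ATPase minus TFE factors 0.0663, Atp6v0d1 minus Atp6v0d2 2.55, Tcirg1 minus Atp6v0a1 3.29, Tfe3 minus Mitf -2.11, and Tfe3 minus Tfeb reversed to -2.01. Per kilobase of exon union, with 0.1 added, the medians were 4.74, 4.52, 4.19 and 3.72; hydrolases minus vacuolar ATPase was 0.55, membrane proteins minus vacuolar ATPase 0.32, Atp6v0d1 minus Atp6v0d2 2.96 and Tfe3 minus Tfeb 1.32. With a pseudocount of 0.1, Atp6v0d1 minus Atp6v0d2 was 3.63. With no filter on low counts 1 gene, Ctsl, was more variable than the trend. Over all genes the fit called 24, against 0 with a non-robust trend (747 at an unadjusted p under 0.05), 36 with DESeq2 size factors, 180 with a mean of at least 50 counts, 677 with no filter, 1 among nuclear protein-coding genes alone, and 38, 0 and 78 without replicates 1, 2 and 3. The vacuolar ATPase retained-intron share was 60.3% in the alignment-based transcript table. The causes were not tested. Leaving out any 1 library kept the direction and call of 17 of 17 results. Depth limits Smpd1, Atp6v0d2 and Atp6v1f most, with at most 136 expected counts in any library.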
